A study of Mus musculus with 7 samples.

Results

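The skeletal muscle contractile genes are 34 genes of the striated muscle fibre, chosen by gene symbol. Each was found as 1 row among the 50600 genes of the count table and was read in all 7 libraries. The tissue was mouse olfactory epithelium, which carries the odour-sensing neurons, taken whole at postnatal day 7 and sequenced as poly(A) RNA. The neo group holds 3 libraries of Amigo1neo/neo mice, whose Amigo1 coding region was swapped for a neomycin cassette. The KO group holds 3 libraries of Amigo1-/- mice. WT is 1 library of an Amigo1+/+ mouse, has no replicate and is the reference for both mutants. Strain and sex are not given in the sources used here. Whether every library is a separate mouse is not stated in the labels, and p-values therefore rest on the spread between libraries, part of which may be technical. Amigo1, which encodes a neuronal cell adhesion protein, had 11, 5 and 1 counts in neo replicates 1 to 3, 0, 8 and 16 counts in KO replicates 1 to 3 and 744 counts in WT. A code in the sample names is shared by KO and WT and differs in neo. The labels do not explain it, and it cannot be told apart from the neo genotype.

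Striated muscle fibres are not a cell type of the olfactory epithelium, but facial muscles lie close to the nasal cavity. In a fibre, myosin heavy chains and their light chains form thick filaments that pull on thin filaments of actin, tropomyosin and troponin, and calcium set free from the sarcoplasmic reticulum starts the pull by binding troponin. Rodent fibres carry embryonic (Myh3) and perinatal (Myh8) heavy chains early in life and replace them with the adult fast chains of Myh2, Myh1 and Myh4, while Myh7 encodes the slow chain, which heart muscle also uses.

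Promoters are shown for 6 members on which the results turn: Acta1, Ckm and Myh8 with large gaps between libraries, Myh3 and Myh1 as the embryonic and an adult fast heavy chain, and Tpm2 as the member with the most counts in most libraries. The sequences are RefSeq entries on GRCm38.p6 and run from 250 bases before the transcript start to 50 bases after it, 5′ to 3′ on the gene's strand. Capitals mark E-boxes, written CANNTG, the letters that myogenic factors such as MyoD and myogenin are known to bind, which read the same on both strands. They lie at chr8:123894726-123895025 (minus strand, Acta1), chr11:67276874-67277173 (plus strand, Myh8), chr11:67078050-67078349 (plus strand, Myh3), chr11:67199852-67200151 (plus strand, Myh1), chr7:19410844-19411143 (plus strand, Ckm) and chr4:43523505-43523804 (minus strand, Tpm2).
Acta1: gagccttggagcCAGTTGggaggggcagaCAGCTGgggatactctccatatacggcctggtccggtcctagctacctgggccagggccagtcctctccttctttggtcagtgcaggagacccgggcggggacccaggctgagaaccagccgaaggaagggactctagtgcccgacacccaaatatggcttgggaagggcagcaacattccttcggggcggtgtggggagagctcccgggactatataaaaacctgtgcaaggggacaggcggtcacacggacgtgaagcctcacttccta
Myh8: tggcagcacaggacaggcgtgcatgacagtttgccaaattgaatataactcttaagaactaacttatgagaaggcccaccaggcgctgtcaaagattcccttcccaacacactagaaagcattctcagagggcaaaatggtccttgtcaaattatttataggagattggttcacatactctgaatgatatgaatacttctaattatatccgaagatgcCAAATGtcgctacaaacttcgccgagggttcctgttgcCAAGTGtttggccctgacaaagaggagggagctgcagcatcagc
Myh3: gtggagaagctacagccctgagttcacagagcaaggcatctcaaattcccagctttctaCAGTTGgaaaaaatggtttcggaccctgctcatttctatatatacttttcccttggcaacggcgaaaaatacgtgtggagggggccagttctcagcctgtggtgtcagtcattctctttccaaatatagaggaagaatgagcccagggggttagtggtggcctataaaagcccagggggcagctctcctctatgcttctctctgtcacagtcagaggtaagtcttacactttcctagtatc
Myh1: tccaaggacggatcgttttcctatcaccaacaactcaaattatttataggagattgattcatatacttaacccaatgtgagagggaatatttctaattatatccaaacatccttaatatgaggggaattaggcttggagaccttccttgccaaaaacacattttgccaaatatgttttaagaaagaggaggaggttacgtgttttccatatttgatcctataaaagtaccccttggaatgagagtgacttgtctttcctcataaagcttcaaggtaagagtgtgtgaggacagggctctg
Ckm: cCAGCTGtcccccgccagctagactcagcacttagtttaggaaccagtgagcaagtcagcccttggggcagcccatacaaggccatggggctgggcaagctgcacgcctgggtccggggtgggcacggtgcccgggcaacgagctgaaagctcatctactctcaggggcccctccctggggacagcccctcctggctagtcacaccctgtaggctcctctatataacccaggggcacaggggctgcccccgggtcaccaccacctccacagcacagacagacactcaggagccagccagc
Tpm2: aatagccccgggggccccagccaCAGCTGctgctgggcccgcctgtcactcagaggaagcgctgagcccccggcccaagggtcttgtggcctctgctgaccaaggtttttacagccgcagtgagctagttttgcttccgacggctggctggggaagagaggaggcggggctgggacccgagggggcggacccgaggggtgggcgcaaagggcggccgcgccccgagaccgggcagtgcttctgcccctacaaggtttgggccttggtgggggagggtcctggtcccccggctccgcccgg
Acta1 and Myh8 hold 2 E-boxes each, Myh3, Ckm and Tpm2 hold 1 each and Myh1 holds 0. The RefSeq table had promoters for 28 of the 34 members, 33 sequences in all. Of these, 28 (84.8%) held an E-box, beside 72.3% of the 32851 promoters of the same length in the table. A CArG box, searched on both strands, stood in 2 member promoters (6.06%), those of Acta1 and Myh4, and in 1.63% of all promoters. No call is drawn from these matches, which say only which letters lie in these windows.

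Gene counts totalled 14879415 to 21343058 per library. Markers of the labelled tissue were present in every library: Omp, the protein of mature olfactory neurons, stood at 862, 1162 and 913 CPM (gene counts scaled by library size after TMM normalisation) in neo, 828, 783 and 851 CPM in KO and 964 CPM in WT. Neo replicate 1 stood apart from the other 6 libraries. A gene was counted as standing apart in a library where its CPM was at least 1 and at least 10-fold the highest of the other 6, each taken as at least 3 counts, or lower than the lowest of them by at least the same fold. By that measure 70 genes were higher and 19 lower in neo replicate 1, against at most 2 higher and 2 lower in any other library. Of the 70 higher genes, 20 were members and 24 were other muscle genes listed for comparison. The 19 lower genes included Bpifb9b, a secreted protein gene of nasal glands, which had 95.8, 22596 and 15840 CPM in neo, 39651, 35131 and 22653 CPM in KO and 25104 CPM in WT. Xist, the RNA of the inactive X chromosome, had 1144, 1.55 and 0.332 CPM in neo, 2.08, 4.18 and 0.828 CPM in KO and 643 CPM in WT. High Xist was thus shared by neo replicate 1 and WT. Without neo replicate 1, the Y chromosome genes Kdm5d, Uty and Ddx3y were higher in KO than in WT by 8.95, 12.4 and 10.4 (log2, edgeR). They were higher in neo than in WT by 8.94, 11.9 and 10.5. By these genes WT differed in sex from the KO libraries and from neo replicates 2 and 3. In neo, high Xist and high muscle genes lay in the same library and cannot be told apart. In WT, also high in Xist, the 34 members summed to 95.02 CPM, the lowest of the 7 libraries. The part of sex in the muscle level was not tested. Gm42418, a gene that overlaps ribosomal RNA, took 9.83% of gene counts in neo replicate 1 and 11.7 to 16.5% elsewhere.

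Muscle transcripts were far higher in neo replicate 1 than in the other 6 libraries, whose sums lay close together. Tpm2, a tropomyosin gene that other cells also use, gave 47.6 to 70.8% of the member counts in those 6. Summed over the 34 members, the level was 2074, 108 and 108 CPM in neo replicates 1 to 3, 105, 108 and 118 CPM in KO replicates 1 to 3 and 95.02 CPM in WT. On the TPM scale, which takes gene length into account, the sums were 3238, 131 and 149 in neo, 129, 144 and 153 in KO and 131 in WT. The members took 0.231% of all gene counts in neo replicate 1 (exact 95% interval 0.229 to 0.233) and between 0.00968% in WT and 0.0114% in KO replicate 3 elsewhere. The intervals cover counting error only. As group values the summed level was 764 ± 1135 CPM in neo and 111 ± 6.67 CPM in KO (SD, n = 3 each), so the SD of neo was larger than its mean. KO replicate 3 lay within the range of neo. KO replicates 1 and 2, at 105.50 and 107.97 CPM, lay just below the lowest neo value, 108.40 CPM. In bulk RNA, more muscle fibres in a sample and more muscle RNA per fibre cannot be told apart, and how muscle RNA came into the library was not tested.

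Most members took part in this gap. Neo replicate 1 was the highest library for 31 of the 34 members. Its CPM was at least 10-fold the highest other library in 20 members, 2-fold to under 10-fold in 10 and under 2-fold in 4. All 5 genes of calcium release and uptake, all 3 fast troponins and 4 of 5 Z-disc and scaffold genes reached 10-fold, as did 2 of 6 heavy chains, 2 of 4 genes of the light chain group and 0 of 3 slow troponins. Over the members, the median SD of log2(CPM + 0.5) between replicates was 2.14 in neo and 0.30 in KO. Over all 22784 genes with at least 10 counts, that median was 0.18 in neo and 0.17 in KO.

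**Figure D1:**
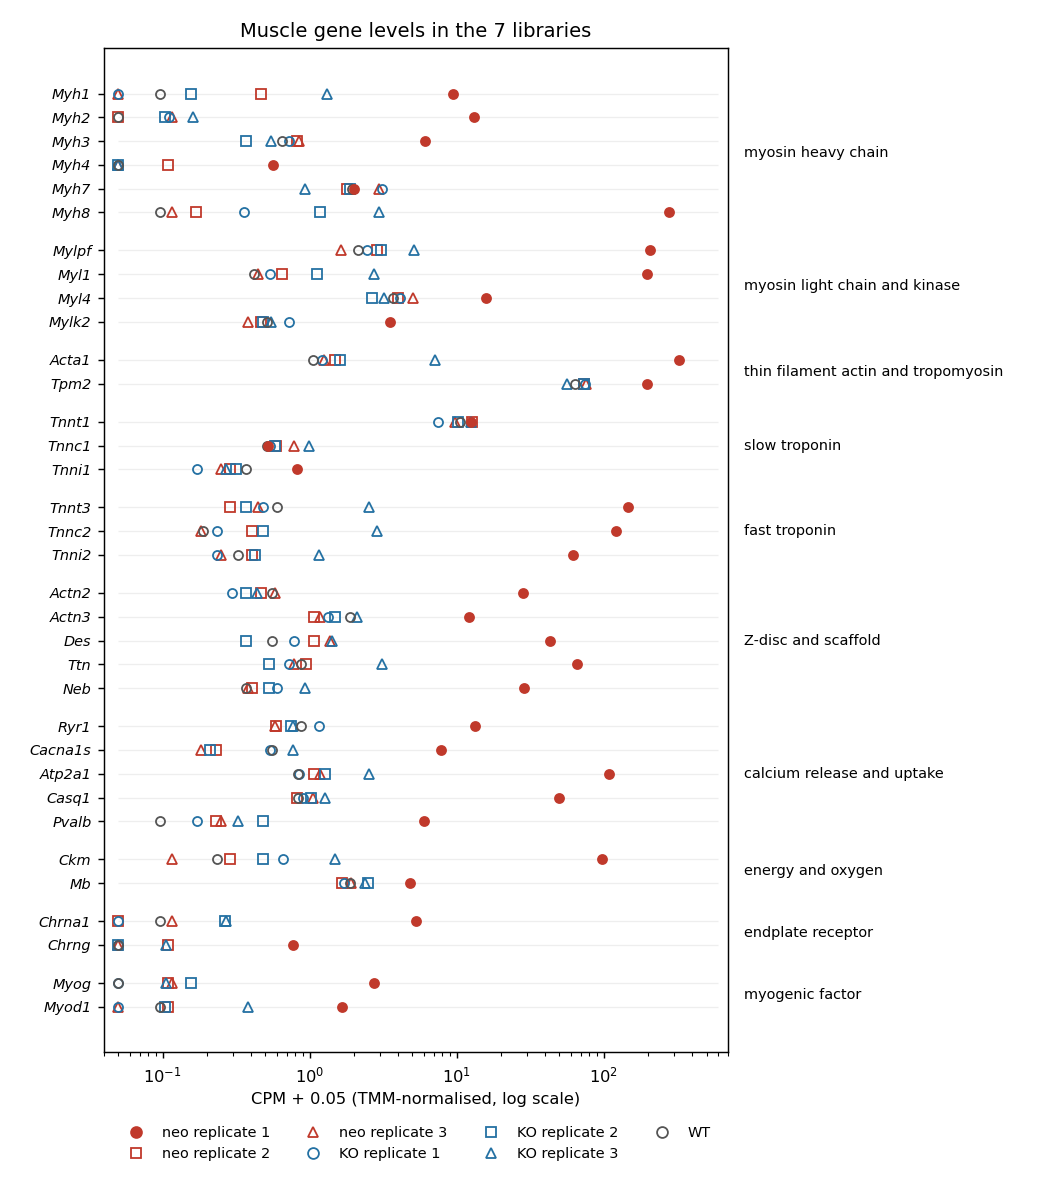
CPM of each of the 34 muscle genes (rows, grouped by role) in each library, on a log axis after adding 0.05; 1 point is 1 library, and the filled point is neo replicate 1. Neo replicate 1 is the rightmost point for 31 genes, while the slow troponins Tnnt1 and Tnnc1 and the slow heavy chain Myh7 lie within the range of the other 6 libraries.

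The 6 heavy chains, the motors of the thick filament, split by fibre stage. Myh8, the perinatal chain, had 6552, 2 and 1 counts in neo, 5, 21 and 53 counts in KO and 1 count in WT. Myh3, the embryonic chain, had 142, 13 and 12 counts in neo, 11, 6 and 9 in KO and 13 in WT. Myh8 in neo replicate 1 was therefore 95.3-fold the next library in CPM and Myh3 7.58-fold. Every neo library was above every KO library for Myh3, but by only 1 count between neo replicate 3 and KO replicate 1.

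Adult fast chains were present at lower counts. Myh2 had 307, 0 and 1 counts in neo, 1, 1 and 2 in KO and 0 in WT. Myh1 had 221, 7 and 0 counts in neo, 0, 2 and 23 in KO and 1 in WT. Both were highest in neo replicate 1, with KO replicate 3 next, and the groups overlapped. Myh4, the chain of the fastest fibres, had 12, 1 and 0 counts in neo and 0 in all 3 KO libraries and in WT, where a count of 0 allows up to 3 counts. The slow chain Myh7 showed no such gap, with 46, 29 and 44 counts in neo, 50, 34 and 16 in KO and 41 in WT. Its level was 2.21 ± 0.633 CPM in neo and 1.92 ± 1.09 CPM in KO (SD, n = 3 each), within the spread of each group. Myh2, Myh1, Myh4 and Myh8 sit side by side on chromosome 11 between 67171027 and 67308634 (GRCm38, plus strand), with Myh3 near them at 67078300 to 67102291. They are close in sequence, and reads that matched more than 1 gene are not in the gene counts, so their counts are uncertain.

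Developmental heavy chains made up nearly all heavy chain reads in neo replicate 1. Myh3 and Myh8 together took 92.0% of the 7280 heavy chain counts there (exact 95% interval 91.3 to 92.6), of which Myh8 alone gave 90.0%. The share was 28.8% of 52 counts (17.1 to 43.1) in neo replicate 2 and 22.4% of 58 counts (12.5 to 35.3) in neo replicate 3. In KO it was 23.9% of 67 counts (14.3 to 35.9), 42.2% of 64 counts (29.9 to 55.2) and 60.2% of 103 counts (50.1 to 69.7) in replicates 1 to 3. WT had 25.0% of 56 counts (14.4 to 38.4). The interval of neo replicate 1 lay above those of all 6 other libraries, and KO replicate 3 came next. The TPM scale gave 90.1% in neo replicate 1 and 51.5% in KO replicate 3, with 11.7 to 29.6% in the other 5 libraries. The group means were 47.7 ± 38.4% in neo and 42.1 ± 18.2% in KO (SD, n = 3 each), a difference within the spread of each group. Myh7 is in this sum and had no such gap, so the share also rises with the amount of other heavy chain RNA. Without Myh7, developmental and adult fast counts were 6694 and 540 in neo replicate 1 and 62 and 25 in KO replicate 3. In neo replicates 2 and 3 they were 15 and 8, and 13 and 1. In KO replicates 1 and 2 they were 16 and 1, and 27 and 3, and in WT 14 and 1. Developmental counts thus exceeded adult fast counts in all 7 libraries.

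The make-up of the muscle reads differed between the 2 libraries with the most fast fibre RNA. Myh1 took 3.26% of Myh1 and Myh8 counts in neo replicate 1 (exact 95% interval 2.85 to 3.71, of 6773 counts) and 30.3% in KO replicate 3 (20.2 to 41.9, of 76 counts). These intervals do not overlap, but they compare 2 libraries and not 2 genotypes. In the other 5 libraries the same sum was 1 to 23 counts, too few to read a share.

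**Figure D2:**
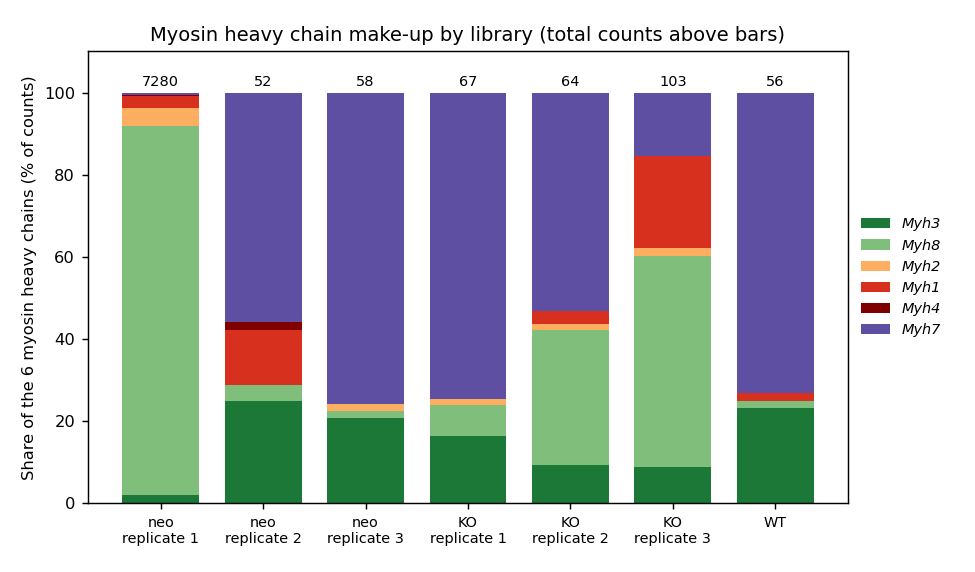
Share of each of the 6 myosin heavy chain genes in their summed counts (y axis, percent) for each library (x axis), with the summed counts above each bar. Myh8 fills 90.0% of neo replicate 1, with 7280 counts, while Myh7 is the largest share in neo replicates 2 and 3, KO replicates 1 and 2 and WT, each with 52 to 67 counts.

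Myosin light chains, which stiffen and tune the lever of the heavy chain, were among the most abundant members per length in neo replicate 1. Mylpf, the fast regulatory light chain, had 4870, 47 and 24 counts in neo, 39, 56 and 92 in KO and 45 in WT. Myl1, the fast essential light chain, had 4630, 10 and 6 counts in neo, 8, 20 and 49 in KO and 8 in WT. Both were highest in neo replicate 1 and next highest in KO replicate 3. On the TPM scale they were the top members of neo replicate 1, with 627 for Mylpf and 604 for Myl1, ahead of Acta1 with 400.3, Tnnc2 with 325 and Tnnt3 with 285. Myl4, the embryonic and atrial light chain, had 368, 66 and 75 counts in neo, 66, 49 and 57 in KO and 79 in WT, and its base level was similar in all libraries but neo replicate 1. Mylk2, the skeletal muscle kinase of the regulatory light chain, had 82 counts in neo replicate 1 and 5 to 11 elsewhere.

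Thin filament genes fell into 2 kinds. Acta1, skeletal muscle actin, had 7651, 24 and 18 counts in neo, 19, 29 and 129 in KO and 22 in WT. This is 109 ± 187 CPM in neo and 3.28 ± 3.33 CPM in KO (SD, n = 3 each), with the groups overlapping. Tpm2, beta-tropomyosin, which smooth muscle and other cells also make, had 4644, 1225 and 1138 counts in neo, 1220, 1379 and 1018 in KO and 1384 in WT. Tpm2 gave 9.53% of all member counts in neo replicate 1, below its share in every other library. Without Tpm2, the summed level of the other members was 1876, 35.2 and 32.8 CPM in neo, 30.8, 34.1 and 61.9 CPM in KO and 31.4 CPM in WT. Leaving Tpm2 out thus set KO replicate 3 above the other 5 low libraries, which lay between 30.8 and 35.2 CPM.

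The authors' transcript estimates split Tpm2 further. ENSMUST00000107914.9 was the main Tpm2 transcript in all libraries, with 151 TPM in neo replicate 1 and 61.8 to 96.1 TPM elsewhere. ENSMUST00000107913.9 stood at 76.6 TPM in neo replicate 1 and at 2.20 to 3.90 TPM elsewhere. The second transcript was low outside neo replicate 1, while the first was well expressed in all 7 libraries. For Myl1, ENSMUST00000119429.7 had 486 TPM and ENSMUST00000027151.11 had 106 TPM in neo replicate 1, beside 0 to 8.27 TPM and 0 to 0.44 TPM in the other libraries. For Myl4, the largest transcript in every library was ENSMUST00000123074.7, which retains an intron. It had 14.4 TPM in neo replicate 1 and 2.26 to 8.87 TPM elsewhere. The coding ENSMUST00000106956.9 had 11.3 TPM in neo replicate 1 and 0 to 2.14 TPM elsewhere. The largest part of the base level of Myl4 was thus a transcript that retains an intron, but coding transcripts were estimated as well. In KO replicate 2 it had 2.26 TPM, beside 1.44 and 0.77 TPM for the coding ENSMUST00000106957.7 and ENSMUST00000018800.8. All of these estimates outside neo replicate 1 are low.

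Troponins, the calcium switch of the thin filament, showed the fast and slow sets apart. Tnnc2, fast troponin C, had 2834, 6 and 2 counts in neo, 3, 8 and 51 in KO and 3 in WT. Tnnt3 and Tnni2, the fast tropomyosin-binding and inhibitory subunits, had 3434 and 1459 counts in neo replicate 1 and at most 45 and 20 elsewhere, both in KO replicate 3. The slow set did not stand apart. Tnnt1, its tropomyosin-binding subunit, had 294, 213 and 146 counts in neo, 121, 191 and 226 in KO and 228 in WT, or 11.6 ± 1.69 CPM in neo and 10.04 ± 2.54 CPM in KO (SD, n = 3 each). Tnnc1, also the troponin C of the heart, had 8 to 17 counts in every library, and Tnni1 had 18 counts in neo replicate 1 and 2 to 7 elsewhere. Slow subunits gave 3.57, 93.3 and 92.5% of summed troponin TPM in neo, 89.0, 89.5 and 66.3% in KO and 91.4% in WT. Neo replicate 1 was the lowest library and KO replicate 3 the next lowest, and the means were 63.1 ± 51.6% in neo and 81.6 ± 13.3% in KO (SD, n = 3 each). Slow troponin TPM ran only from 12.5 in KO replicate 1 to 28.5 in neo replicate 1. Fast troponin TPM ran from 1.49 in neo replicate 2 to 771 in neo replicate 1, so the share mostly follows the fast set. Whether the base level of Tnnt1 comes from slow fibres was not tested.

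Z-disc and scaffold genes anchor and space the filaments. Des, the intermediate filament desmin, had 1020, 17 and 20 counts in neo, 12, 6 and 25 in KO and 11 in WT. Actn2, an alpha-actinin of the Z-disc, had 668, 7 and 8 counts in neo, 4, 6 and 7 in KO and 11 in WT, so that no neo library was below KO replicate 3 in CPM. Of the giant scaffold proteins, titin (Ttn) had 1539 counts in neo replicate 1 and 9 to 55 elsewhere, and nebulin (Neb) had 678 counts and 5 to 16. Actn3, the alpha-actinin of fast fibres, had a higher base level, with 285 counts in neo replicate 1 and 17 to 40 in the other 6 libraries.

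Genes of calcium handling followed neo replicate 1 throughout. Atp2a1, the fast fibre calcium pump, had 2535, 17 and 17 counts in neo, 13, 23 and 45 in KO and 17 in WT. Casq1, the calcium store protein calsequestrin, had 1171 counts in neo replicate 1 and 13 to 22 elsewhere. Ryr1, the calcium release channel, had 311 and 8 to 18 counts, and its voltage sensor Cacna1s had 184 and 2 to 13 counts, in that order. Pvalb, a calcium buffer of mature fast fibres that some neurons also make, had 140, 3 and 3 counts in neo, 2, 8 and 5 in KO and 1 in WT. Neo and KO overlapped for these genes, since neo replicates 2 and 3 lay among or below the KO values. The single WT library was the lowest of the 7 for Pvalb, at 0.046 CPM, and for Atp2a1, at 0.781 CPM, where KO replicate 1 was at 0.796 CPM.

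Ckm, muscle creatine kinase, which buffers ATP, had 2274, 4 and 1 counts in neo, 10, 8 and 26 in KO and 4 in WT. Neo replicates 2 and 3 were below every KO library for Ckm, while neo replicate 1 was 67.4-fold above the highest of them in CPM. Mb, myoglobin, the oxygen store of oxidative fibres and heart, differed little, with 112 counts in neo replicate 1 and 27 to 46 elsewhere, or 2.75 ± 1.75 CPM in neo and 2.15 ± 0.433 CPM in KO (SD, n = 3 each).

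Chrna1, the alpha subunit of the acetylcholine receptor at the nerve-muscle endplate, had 123, 0 and 1 counts in neo, 0, 4 and 4 in KO and 1 in WT. Chrng, the fetal gamma subunit that an adult subunit encoded by Chrne replaces, had 17, 1 and 0 counts in neo, 0, 0 and 1 in KO and 0 in WT. Myog, myogenin, a transcription factor of differentiating myoblasts, had 63, 1 and 1 counts in neo, 0, 2 and 1 in KO and 0 in WT. Myod1, which marks committed myoblasts, had 38, 1 and 0 counts in neo, 0, 1 and 6 in KO and 1 in WT. These 4 genes were near 0 in all libraries but neo replicate 1, where the fetal receptor subunit and the myogenic factors were detected beside the adult fast chains.

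By fibre stage, 2 of 6 developmental, 5 of 9 mature fast, 13 of 15 stage-shared and 0 of 4 slow members reached 10-fold in neo replicate 1. The fold over the highest other library ran from 3.14 to 95.3 in the developmental set (Myh3, Myh8, Myl4, Chrng, Myog, Myod1) and from 2.56 to 67.4 in the mature fast set (Myh1, Myh2, Myh4, Actn3, Pvalb, Atp2a1, Casq1, Ckm, Mylk2). In the slow set (Myh7, Tnnt1, Tnnc1, Tnni1) it ran from 0.499 to 2.38. Developmental and mature fast genes were thus both high in the same library. The low folds of Chrng, Myh4 and Myod1 rest on at most 38 counts in that library.

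KO replicate 3 stood above the other low libraries by a far smaller gap and was the next highest library for 19 of the 34 members. Its Acta1 level was 7.12 CPM, against 1.16 and 1.55 CPM in the other KO libraries, and its Myh8 level was 2.93 CPM, against 0.306 and 1.13 CPM. Markers of other cells moved in the same library: the summed level of 6 Schwann and ensheathing glia genes was 331 CPM there and 192 to 220 CPM in the other 6 libraries. Mbp, a myelin protein gene, stood at 167 CPM in KO replicate 3 and at 54.3 to 59.1 CPM elsewhere, whereas Sox10 was at 26.8 CPM, within the range of the other libraries. The glia sum was raised mainly through Mbp. The summed level of 12 bone and cartilage genes was also highest in KO replicate 3, at 3592 CPM, beside 535 to 2149 CPM elsewhere. Of that sum the bone matrix genes Spp1 and Ibsp gave 2145 and 945 CPM, whereas the cartilage factor gene Sox9 was lowest in KO replicate 3, at 33.4 CPM, beside 33.96 to 69.1 CPM, and Col2a1, Acan and Col9a1 lay within the range of the other libraries. The part of these tissues in the muscle values was not tested.

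Part of the muscle genes outside the list were also far higher in neo replicate 1. Of 73 other genes of striated muscle, 71 were in the count table and 24 of them reached 10-fold in neo replicate 1. Among these were 15 of 27 further sarcomere genes, 5 of 18 membrane and calcium genes, 3 of 14 metabolic genes, 1 of 5 genes of precursors and fusion and 0 of 7 endplate genes. Actc1, the actin of heart and developing skeletal muscle, had 24.5 CPM in neo replicate 1 and 0 to 0.22 CPM elsewhere. Pax7, the factor of muscle stem cells, ran the other way, at 3.28 CPM in neo replicate 1 and 6.79 to 20.6 CPM elsewhere, as did Pax3, a factor of muscle precursors, at 12.1 CPM and 18.5 to 27.7 CPM. Myf6 and Myf5, myogenic factors of the same list, were higher in neo replicate 1, with 51 and 17 counts there and at most 2 elsewhere. Cdh15 was at 5.45 CPM there and 3.59 to 5.41 CPM elsewhere. Pax7 and Pax3 gave most of the sum of this list, which was lowest in neo replicate 1, at 23.7 CPM, against 32.6 to 52.3 CPM elsewhere. In the other 6 libraries Pax7 and Pax3 had 123 to 336 and 278 to 453 counts, while Myog and Myod1 were near 0. Whether Pax7 and Pax3 come from muscle precursors there was not tested. The 6 heart genes summed to 5.53, 3.05 and 5.38 CPM in neo, 3.86, 3.32 and 2.82 CPM in KO and 3.22 CPM in WT, so neo replicate 1 was highest, by a small gap to neo replicate 3. Of these, the natriuretic peptide genes Nppa and Nppb had at most 1 count in any library, while Tnni3, cardiac troponin I, had 3.28 CPM in neo replicate 1 and 1.78 to 3.66 CPM elsewhere. The 3 craniofacial and extraocular myosins summed to 0.681 CPM in neo replicate 1 and 0.0536 to 0.506 CPM elsewhere, and of them Myh13 was near 0, with 0.043 CPM in neo replicate 1 and at most 0.12 CPM elsewhere.

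Of 87 genes on lists for other tissues, 0 reached 10-fold in neo replicate 1. Smooth muscle and pericyte genes summed to 2506, 2375 and 3192 CPM in neo, 2232, 2108 and 2872 CPM in KO and 1909 CPM in WT, and tendon genes to 88.1 CPM in neo replicate 1 and 61.2 to 97.8 CPM elsewhere. Mature olfactory neuron genes summed to 3729 CPM in neo replicate 1 and 3171 to 4201 CPM elsewhere, so neo replicate 1 lay within the range of the others in all 3. Fat genes summed to 110.1 CPM in neo replicate 1, just above the 62.1 to 102.7 CPM elsewhere. The sustentacular and gland list had a wide gap, with 2722, 28513 and 18890 CPM in neo, 43243, 38161 and 24746 CPM in KO and 28580 CPM in WT. Bpifb9b made up most of that gap, since Cyp2g1, a sustentacular enzyme, had 1164 CPM in neo replicate 1 and 918 to 1405 CPM elsewhere. Some lists set neo apart from KO: fibroblast genes summed to 7593, 6972 and 4432 CPM in neo, 11990, 9468 and 13737 CPM in KO and 10095 CPM in WT. Bone and cartilage genes summed to 1455, 975 and 535 CPM in neo, 2149, 2021 and 3592 CPM in KO and 1829 CPM in WT. In these sums every neo library was below every KO library and WT for both lists, and above every KO library for the mature olfactory neuron list. Single genes differed. Col1a1 and Col1a2 gave most of the fibroblast sum, while Dcn overlapped between neo and KO. Col9a1 ran against the bone and cartilage sum, at 41.2, 36.7 and 35.8 CPM in neo and 29.0, 26.4 and 29.9 CPM in KO. Omp, Stoml3, Rtp1 and Umodl1 were higher in every neo library, while Gnal, Cnga2, Adcy3, Ano2 and Cngb1 overlapped. The part of these tissues in the comparison of neo with KO was not tested.

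The 10 non-member genes whose log2 CPM ran most like the log2 summed member level over the 7 libraries were Actc1, Klhl41, Mysm1, Gm8730, Pgam2, Hfe2, Lmod3, Xirp2, Myo18b and Tmem182 (Pearson r 0.992 to 0.998). All 7 points share 1 extreme library, so r describes little beyond neo replicate 1. Mysm1, a histone H2A deubiquitinase, had the smallest gap of the 10, with 59.3 CPM in neo replicate 1 and 39.8 to 41.2 CPM in the other 6 libraries.

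**Figure D3:**
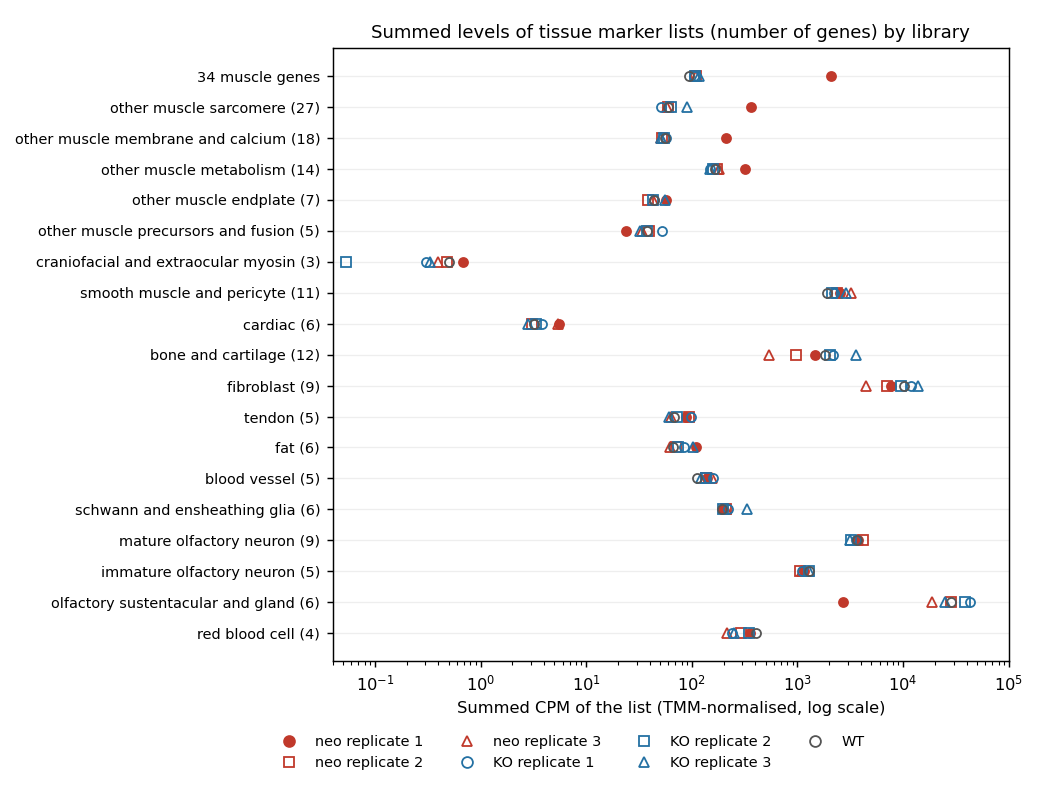
Summed CPM (x axis, log scale) of the 34 muscle genes and of 18 marker lists (rows, number of genes in brackets) in each library; the filled point is neo replicate 1. Neo replicate 1 is far above the other 6 libraries for the 34 muscle genes, the further sarcomere genes and the membrane and calcium genes. It is above them by a smaller gap for the metabolic genes and below them for the sustentacular and gland list. KO replicate 3 is above the other libraries for the Schwann and ensheathing glia list.

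Neo was compared with KO to ask what the cassette allele changes beyond loss of Amigo1. In edgeR's quasi-likelihood test, 17 of the 34 members passed the count filter and 0 passed the adjusted threshold, beside 0.0170% of all 17638 genes tested. At an unadjusted p under 0.05 there were 2 members, Myh3 and Myl4, beside 9.32% of all genes, and DESeq2 called 0 members, of which 24 had no adjusted p, beside 0.318% of all genes. Myh3 differed by 2.41 (log2, SE 0.95, adjusted p = 0.523, edgeR) and Myl4 by 1.35 (SE 0.54, adjusted p = 0.525, edgeR). Both were smaller without neo replicate 1, where Myh3 was at 0.67 (adjusted p = 0.567, edgeR) and Myl4 at 0.45 (adjusted p = 0.492, edgeR). Every neo library was above every KO library for 2 of 34 members, Myh3 and Actn2, beside 5.84% of genes with a count, and every neo library was below every KO library for 0 of 34, beside 5.64%.

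The fitted folds were large, and so were their SEs. Myh8 differed by 5.99 between neo and KO (log2, SE 3.15, adjusted p = 0.646, edgeR). Acta1 differed by 5.06 (SE 2.71, adjusted p = 0.649, edgeR). Ckm differed by 5.30 (SE 2.79, adjusted p = 0.647, edgeR). Each of these 3 values reversed without neo replicate 1. Myh8 was then at -3.85 (SE 1.22, adjusted p = 0.274, edgeR), Ckm at -2.34 (SE 0.80, adjusted p = 0.277, edgeR) and Acta1 at -1.31 (SE 0.95, adjusted p = 0.619, edgeR). Tpm2, the member with the most counts outside neo replicate 1, was at 0.77 (SE 0.45, adjusted p = 0.662, edgeR) with all libraries and 0.13 without that library.

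Over all 34 members, fitted with no count filter, the median log2 fold of neo over KO was 3.77 and 33 members were positive, beside a median of -0.002 over all genes. With Myh4, which had 0 counts in all KO libraries, set at a floor of 3 counts over the group, the median was 3.55. Without neo replicate 1 the median was -0.56, with 11 of 34 positive. The change of sign came with 1 library of 6. By stage, the medians were 2.96 in the developmental set, 4.10 in the mature fast set, 4.25 in the stage-shared set and 0.21 in the slow set with all libraries. Without neo replicate 1 the developmental, mature fast, stage-shared and slow medians were 0.30, -0.55, -0.87 and 0.13. The authors' deposited table, whose log2 folds run as KO over neo, gave a median of -3.82 over the members, 33 of them below 0. In the authors' deposited table, 19 of 34 members had an unadjusted p under 0.05, beside 4.66% of all genes, and 0 of the 30 members with an adjusted p passed 0.05, beside 0.429% of all genes, with 0.196 as the lowest. DESeq2 run on the deposited counts gave no p for 20 of the 34 members, and 3 of the 34 had an unadjusted p under 0.05 (Myh3, Myl4 and Myog), beside 5.06% of all genes.

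**Figure D4:**
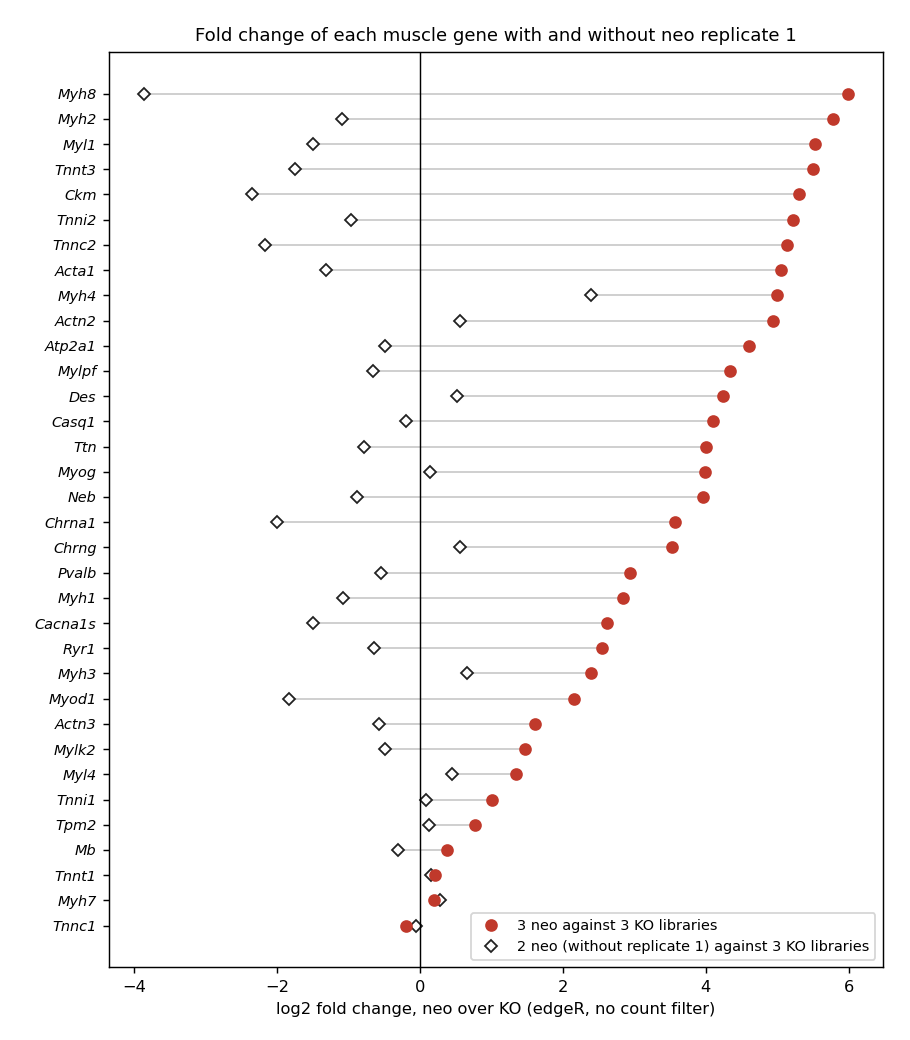
Fitted log2 fold change of neo over KO for each of the 34 muscle genes (rows), from all 6 libraries (filled circles) and without neo replicate 1 (open diamonds), with no count filter. With all libraries 33 of 34 genes lie above 0, and without neo replicate 1 only 11 do, with Myh8 at -3.85.

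Loss of Amigo1 is addressed by KO against WT, fitted over all 7 libraries and sharing its WT library with the comparison of neo with WT. WT was high in Xist and low in Y chromosome genes beside KO, so sex and genotype cannot be told apart in this comparison. Of 33 members tested 0 passed in edgeR, beside 0.00523% of 19123 genes, and 0 had an unadjusted p under 0.05, beside 0.727%. DESeq2 also called 0 members, beside 0.00319% of all genes. The median log2 fold of KO over WT was 0.76 over the members tested and 0.01 over all genes. It was 0.51 with Myh2, Chrng and Myog, all at 0 in WT, set at the floor, and 0.22 without KO replicate 3. Myh8 differed by 4.81 (SE 10.3, adjusted p = 1, edgeR), with 5, 21 and 53 counts in KO and 1 in WT. Without neo replicate 1, a library of neither group that still sets the spread of this fit, the SE for Myh8 was 1.69 at a difference of 4.80 (adjusted p = 0.9997, edgeR).

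Neo was compared with WT in the same fit, where only neo replicate 1 had the high Xist of WT. Of 33 members tested 0 passed in edgeR, beside 0.0105% of 19123 genes, and 0 had an unadjusted p under 0.05, beside 2.97%, and DESeq2 called 0 members, beside 0.00956%. The median log2 fold of neo over WT was 4.91 over the members tested and 0.01 over all genes, and 4.47 with the 3 genes at 0 in WT set at the floor. Since WT is 1 library, 1 library was enough to meet the count filter. Members such as Chrng, Myog and Myh2 met it only through neo replicate 1, where they were high, so this median is descriptive. With no count filter it was 4.93 over all 34 members. Without neo replicate 1, with the filter, the median was 0.19 over 25 members tested, where 0 members and 0.0321% of all genes passed. Myh8 was at 10.8 (log2, SE 7.78, adjusted p = 0.9999, edgeR) with that library and at 0.95 (SE 2.47, adjusted p = 0.955, edgeR) without it.

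Neo replicate 1 also touched the comparison over all genes. Between neo and KO, edgeR called 3 genes, Cyb561d1, the gene next to Amigo1, Olfr287 and Gm5841. Without neo replicate 1 it called 17 genes, all 3 among them, or 0.0955% of those tested. Genes with an unadjusted p under 0.05 were 1643 with it and 2417 without it. With the log2 summed member level of each library as a covariate, edgeR called 4 genes, all outside the muscle lists (Alad, Cyb561d1, Gm5841 and Kctd21). Outside the muscle lists, 2395 genes then had an unadjusted p under 0.05, beside 1636 without the covariate. This covariate was high in neo replicate 1 only, so the fit is close to leaving that library out, which gave 2413 such genes. It is therefore no separate adjustment for muscle level. Leaving the muscle genes out of the TMM factors left the count at 3. Cyb561d1 differed by -3.04 between neo and KO (log2, adjusted p = 0.00348, edgeR) and by -2.83 without neo replicate 1 (adjusted p = 0.00145, edgeR). Since neo replicate 1 differed in Bpifb9b and in other genes as well as in muscle genes, the part of each in these counts was not tested.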

How the data were processed

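Poly(A) RNA of 7 libraries was analysed (3 neo, 3 KO, 1 WT), grouped by the sample titles. The deposited gene counts are whole numbers of reads on GRCm38, for which the submitters' processing notes name Trimmomatic 0.35 and STAR 2.5.1b. Reads in the multimapping row (14.5 to 19.6% of all reads), with no feature (14.2 to 17.4%), ambiguous (0.666 to 0.865%) or unmapped (3.32 to 4.38%) name no gene and were left out. The authors' TPM values per gene and transcript are RSEM estimates, per the file headers. The authors' deposited comparison holds log2 folds of KO over neo with p-values, standard errors used here as a score, and a normalised signal per library, per the file headers. The submitters' processing notes name DESeq2 1.18.1. Its direction was checked against the group means in the same table.

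Counts were fitted across the whole table with edgeR 4.0.16 in R 4.3.3 (TMM, filterByExpr with minimum count 10 and minimum total 15, robust quasi-likelihood, two-sided, Benjamini-Hochberg at 0.05). Neo against KO used 6 libraries and comparisons with WT all 7, with WT assumed to vary like the others. CPM used TMM factors over 7 libraries. Each SE beside an edgeR fold was worked back from the test, as the absolute log2 fold over the square root of the F statistic. It is approximate, above all where a group has counts near 0. The intervals are Clopper-Pearson. The fits were tested on simulated data. Alternatives were RLE factors, TMM without muscle genes, no filter, 50 counts in 3 libraries, DESeq2 1.42.0, limma 3.58.1 on TPM in log2 with pseudocounts of 0.1 and 1 (mean TPM 0.5 or more), other sets of libraries, a replicate block and leaving out each library. Replicate numbers did not pair the libraries.

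The members, the 18 comparison lists and the tests were chosen with earlier results of these data known. Values in every library were to be given for the heavy chains, called members, the member with the highest mean TPM in each role, Chrng and Pvalb. Of other genes, up to 4 called or 2 with the smallest p per list were to be named, with the 10 most alike. Other genes named, and other members given in every library, were chosen after their values were seen. Promoters were matched by symbol. A gene of the comparison lists is not reported here and is in no sum.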

Additional observations from a re-analysis of the deposited data

How the results depend on the processing

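In every fit and comparison, 0 members passed the adjusted threshold, over 16 alternatives for neo against KO (lowest adjusted p 0.0775 to 0.902), 14 for KO against WT and 15 for neo against WT. The median log2 fold of the members tested depends on the filter, since other members are tested. It was 4.01 for neo against KO, 1.07 at 50 counts in 3 libraries, 1.26 and 1.02 by limma with pseudocounts of 0.1 and 1, and -0.40 to 4.53 when 1 library was left out, negative only without neo replicate 1. For KO against WT it was 0.76, and 0.0159, 0.11 and 0.0917 under the same 3 settings and 0.22 to 1.08 with 1 library left out, lowest without KO replicate 3. For neo against WT it was 4.91, and 1.04, 1.97 and 1.33 under them and 0.19 to 5.47 with 1 library left out, lowest without neo replicate 1. An alternative chosen after seeing the data, with no count filter and without neo replicate 1, gave -0.56 for neo against KO and 0.20 for neo against WT.

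Between neo and KO means, the log2 ratio was 2.79 for the summed level and 2.96 for the share of gene counts, and ran from -0.0274 to 3.30 and from -0.0376 to 3.49 with 1 library left out, negative only without neo replicate 1. The difference in developmental myosin share was 5.65 points, and -16.5 to 18.3 with 1 library left out, reversed without neo replicate 1 (-16.5) or KO replicate 1 (-3.45). The difference in slow troponin share was -18.5 points, and -33.5 to 11.3, reversed without neo replicate 1. Among the members followed under every alternative, folds of neo over KO that reversed without neo replicate 1, with and without the filter, were Myh8 (-3.85 in both), Mylpf (-0.65 and -0.66), Myl1 (-1.50 in both), Acta1 (-1.31 in both) and Ckm (-2.34 and -2.35). With any other library left out these folds were at most 6.98, 4.91, 6.38, 6.33 and 5.98 in that order. Folds of other members reversed without neo replicate 1 as well, among them Atp2a1 (4.61 with it and -0.49 without it), Ttn (4.01 and -0.77), Casq1 (4.10 and -0.19), Ryr1 (2.55 and -0.63), Actn3 (1.62 and -0.57) and Mb (0.38 and -0.30).

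Over all genes, neo against KO gave 3 calls, 98 by DESeq2 and 1 to 17 with 1 library left out. Same-numbered neo and KO libraries did not deviate together (correlations -0.10, -0.05 and 0.19), so they share only a number. With a replicate block, 1 gene (Cyb561d1) and 0 members were called, and the members' median was 1.74. The WT comparisons had no paired fit, since WT has 1 library.

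The low libraries had 52 to 103 heavy chain counts each, which limits every share read there. DESeq2 gave no adjusted p for 24 members in neo against KO and for 15 in each comparison with WT.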
